A study of Mus musculus with 8 samples.

Results

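Collagens are the main structural proteins of the extracellular matrix, and 43 of the 30445 genes in the deposited table carry a collagen chain name (Col, a type number, a and a chain number). All 43 were taken by that name alone, though the family was chosen with earlier results of these data known. They were kept in 3 classes: 11 fibrillar collagens, 8 collagens of basement membranes (type IV, with types XV and XVIII of the basement membrane zone) and 24 others. RNA came from mouse hearts 8 weeks after transverse aortic constriction, in which a band tied around the aortic arch makes the heart pump against raised pressure. The compared groups were 4 libraries labelled Mertk knockdown and 4 labelled wildtype, all from C57 mice and all from operated animals. The labels give no ages, do not say how or in which cells Mertk was lowered, and do not say whether each library is a separate mouse, so p-values measure the spread between these libraries, which may be in part technical.

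Collagen chains wind into a triple helix inside the cell, are hydroxylated and folded by helper enzymes, and are trimmed and cross-linked after secretion. Fibrillar types I and III make the stress-bearing fibres of the heart wall and come mainly from cardiac fibroblasts. Type IV forms the sheet-like network under endothelium and around each muscle cell. Pressure overload is a classical setting of interstitial fibrosis, in which fibroblasts deposit more fibrillar collagen. In bulk tissue, fewer cells of a type and less RNA per cell cannot be told apart.

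The labelled knockdown libraries held 63378755 to 68762911 counts and the wildtype libraries 59287621 to 71571173. Mertk, the targeted gene, stood at 12.8, 12.3, 10.6 and 11.8 CPM (counts scaled to 1e6 per library, with TMM normalization) in the labelled knockdown libraries, against 11.02, 10.4, 10.5 and 12.3 CPM in the wildtype libraries. Its groups overlapped (log2 fold change 0.10, SE 0.11, edgeR adjusted p = 0.766), so the count did not separate the groups as the labels do, and each direction below is that of the labels. Heart muscle markers were abundant in every library: the 10 listed summed to 50890 to 57820 CPM in the labelled knockdown libraries and 38010 to 48960 CPM in the wildtype libraries. Markers of other tissues differed between libraries. The 6 adipocyte markers summed to 57.26 CPM in wildtype replicate 3 and to at most 3.203 CPM in each other library. Transcripts of the 10 hepatocyte markers came to 158.6 to 228.4 CPM in the 4 labelled knockdown libraries. Wildtype replicate 1 held 220.7 CPM of them, while wildtype replicates 2 to 4 held 7.74 to 10.3 CPM. The 6 atrial markers summed to 722.7 CPM in labelled knockdown replicate 4, 404.5 CPM in wildtype replicate 3 and 264.9 CPM in wildtype replicate 4, and to 18.1 to 39.6 CPM elsewhere.

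The start regions of 4 chains that the results turn on are shown here: the pair with the highest levels per length, Col4a1 and Col4a2, and 2 major fibrillar chains with a wide spread, Col1a2 and Col3a1. Col1a1 is named only. They run from 250 bases before the RefSeq start site to 50 bases into the transcript on GRCm38.p6, the assembly behind mm10. Capitals mark 3 motifs, each searched on both strands. The letters searched for the TATA box were TATAAA. For the box named by its letters they were CCAAT. For the GC box, a common binding sequence of promoters, they were GGGCGG. Motifs may overlap. The RefSeq start of Col1a2 lies 804 bases inside the gene as the deposited table gives it. Col4a1 and Col4a2 lie head to head on chromosome 8: their rows in the deposited table overlap by 22 bases, and their 2 windows share 78 bases. A GC box, at chr8:11312812-11312817, lies in both windows. The windows are chr8:11312777-11313076 on the minus strand for Col4a1, and on the plus strand chr8:11312555-11312854 for Col4a2, chr6:4505368-4505667 for Col1a2 and chr1:45311288-45311587 for Col3a1.
Col4a1: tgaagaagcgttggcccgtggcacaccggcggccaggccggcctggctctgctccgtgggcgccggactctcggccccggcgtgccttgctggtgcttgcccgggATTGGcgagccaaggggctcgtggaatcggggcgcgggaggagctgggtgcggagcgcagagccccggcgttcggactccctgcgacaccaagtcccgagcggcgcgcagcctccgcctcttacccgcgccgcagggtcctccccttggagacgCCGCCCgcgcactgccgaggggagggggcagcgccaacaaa
Col4a2: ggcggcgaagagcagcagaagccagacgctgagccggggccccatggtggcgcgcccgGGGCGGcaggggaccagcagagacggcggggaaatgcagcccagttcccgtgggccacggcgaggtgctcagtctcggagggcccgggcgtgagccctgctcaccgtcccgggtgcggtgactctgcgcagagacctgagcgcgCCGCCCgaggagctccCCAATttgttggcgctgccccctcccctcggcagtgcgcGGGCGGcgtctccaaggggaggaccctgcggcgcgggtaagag
Col1a2: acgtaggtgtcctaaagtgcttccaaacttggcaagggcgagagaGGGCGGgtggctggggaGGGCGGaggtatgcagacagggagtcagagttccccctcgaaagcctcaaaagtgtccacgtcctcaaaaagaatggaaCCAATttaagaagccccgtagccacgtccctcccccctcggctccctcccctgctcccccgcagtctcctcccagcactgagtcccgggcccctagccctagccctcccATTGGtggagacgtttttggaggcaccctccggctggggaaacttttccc
Col3a1: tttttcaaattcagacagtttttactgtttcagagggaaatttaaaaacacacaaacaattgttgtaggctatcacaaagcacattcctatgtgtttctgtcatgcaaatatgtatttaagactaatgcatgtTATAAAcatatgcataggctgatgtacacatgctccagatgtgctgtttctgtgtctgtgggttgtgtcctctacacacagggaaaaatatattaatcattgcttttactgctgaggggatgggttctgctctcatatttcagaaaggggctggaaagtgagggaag

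The type IV windows had a GC content of 74.0% and 73.7%, the Col1a2 window of 61.0% and the Col3a1 window of 37.7%. The Col3a1 window held the TATAAA letters and no GC box. Of the 43 genes, 34 had at least 1 window, 37 windows in all. A GC box was found in 59.5% of these windows and in 35.7% of all 32851 mouse windows of this length, a CCAAT box in 32.4% against 37.4%, and TATAAA in 13.5% against 13.6%. The median GC content was 60.0% in these windows and 52.7% in all mouse windows, and its part in the GC box share was not tested. A match here is a description of letters only.

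No collagen gene differed between the labelled knockdown and the wildtype libraries past the threshold (edgeR adjusted p under 0.05). Of the 43, 36 had enough counts to be tested: 9 fibrillar, 8 basement membrane and 19 others. By edgeR 0 were higher and 0 lower, where 0.275% of the 17787 tested genes were called higher and 0.371% lower (0.647% in all). At an unadjusted p under 0.05 there were 3 (Col22a1, Col28a1 and Col6a3), and 12.4% of all tested genes. The 4 libraries of each group left room for sizeable differences: the median width of the 95% interval of a log2 fold change was 2.23 for the collagens and 0.864 for all tested genes. DESeq2 called 1 collagen, Col22a1, which was lower. It called 2.87% of the genes that received an adjusted p, 1.26% higher and 1.62% lower.

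**Figure D1:**
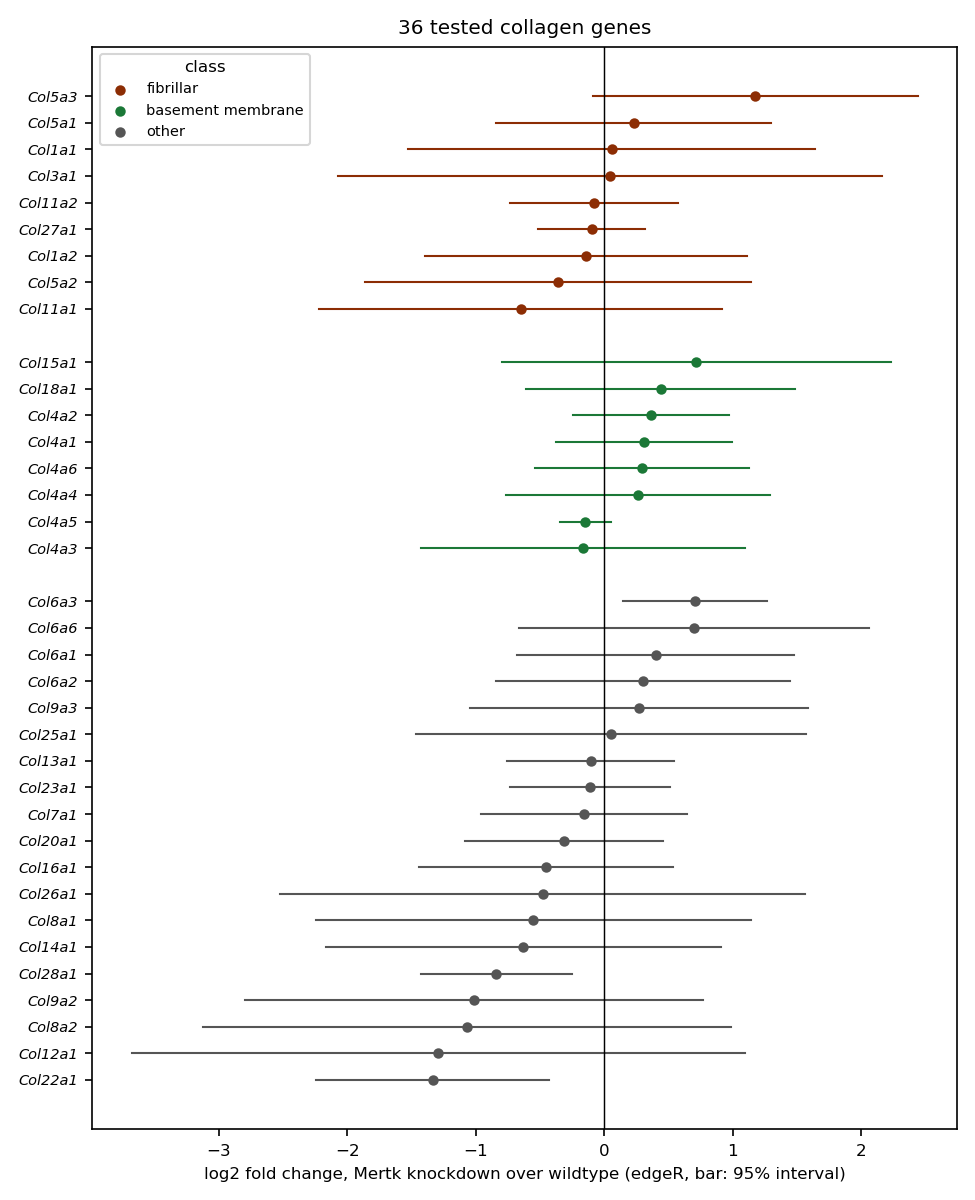
Log2 fold change of each of the 36 tested collagen genes, labelled Mertk knockdown over wildtype (x axis), with its 95% interval as a bar, sorted within fibrillar, basement membrane and other collagens (y axis). The intervals of Col6a3, Col22a1 and Col28a1 lie to 1 side of 0, and none of the 36 passed after adjustment over all tested genes.

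The 3 classes had medians on both sides of 0. Among fibrillar collagens 4 of 9 tested members had a log2 fold change above 0 and 5 below (median -0.08, from -0.65 to 1.18). Among basement membrane collagens 6 of 8 were above 0 and 2 below (median 0.30, from -0.17 to 0.72). Among the others 6 of 19 were above 0 and 13 below (median -0.31, from -1.34 to 0.71). Over all tested genes the median was 0.00. Without wildtype replicate 2 the medians were 0.47 for fibrillar, 0.59 for basement membrane and 0.19 for other collagens. Leaving out wildtype replicate 3 instead moved the collagens the other way. The median over all fitted collagens was -0.10 with all libraries, 0.36 without wildtype replicate 2 and -0.18 without wildtype replicate 3. Within the 5 libraries with over 100 CPM of hepatocyte markers, which include a single wildtype library, the medians were 0.98 for fibrillar, 0.78 for basement membrane and 0.41 for other collagens. The 5 libraries under 200 CPM of atrial markers were labelled knockdown replicates 1 to 3 and wildtype replicates 1 and 2. Within them the medians were -0.47 for fibrillar, -0.0355 for basement membrane and -0.60 for other collagens, so the basement membrane median changed sign. This subset keeps wildtype replicate 2 and drops labelled knockdown replicate 4, so its shift cannot be tied to atrial transcripts. Without wildtype replicate 2 and within the atrial subset edgeR called 0 collagens, with smallest adjusted p-values of 0.220 and 0.274. The smallest in the hepatocyte subset was 0.146, from a fit with a single wildtype library that is assumed to vary like the others. No class was tested as a whole, and the part of liver, atrial and adipocyte transcripts in these values was not tested.

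Libraries of the same group differed widely in collagen transcripts. The SD of log2(CPM + 0.1) had a median over the tested collagens of 0.492 in the labelled knockdown group and 0.881 in the wildtype group. Over all tested genes these medians were 0.233 in the labelled knockdown and 0.255 in the wildtype group. By class, with the labelled knockdown value before the wildtype value, fibrillar collagens had medians of 0.56 and 1.12, basement membrane collagens 0.447 and 0.564, and the others 0.475 and 0.86. The wildtype SD was the larger for 24 of the 36 (66.7%), and for 54.4% of all tested genes. Wildtype replicate 2 had the highest CPM for 18 of the 36 collagens (50.0%) and for 16.2% of all tested genes. Wildtype replicate 3 had the lowest for 15 (41.7%), against 12.9% of all tested genes. These shares were not tested.

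Summed per length, as FPKM (fragments scaled by gene length and library size), the 43 genes came to 145.8, 137.5, 267.4 and 257.8 in labelled knockdown replicates 1 to 4, against 100.1, 313.7, 81.2 and 199.3 in wildtype replicates 1 to 4. Labelled knockdown replicates 1 and 2 were low and replicates 3 and 4 high. Wildtype replicates 1 and 3 lay below all of them, replicate 2 above all of them and replicate 4 between, so the groups overlapped. The summed level averaged 202.1 ± 70.02 FPKM in the labelled knockdown and 173.6 ± 106.8 FPKM in the wildtype group (SD, n = 4 each). Collagen rows took 0.163% ± 0.058 of all counts in the labelled knockdown libraries and 0.148% ± 0.0974 in the wildtype libraries. Basement membrane collagens held the largest share of the summed FPKM in each of the 8 libraries, with 52.7% to 59.2% in the labelled knockdown and 42.9% to 63.3% in the wildtype libraries. The fibrillar share was 20.8% to 29.2% in the labelled knockdown and 17.9% to 35.2% in the wildtype libraries. It was highest in wildtype replicate 2, the library with the largest sum, and lowest in wildtype replicate 3, the library with the smallest.

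**Figure D2:**
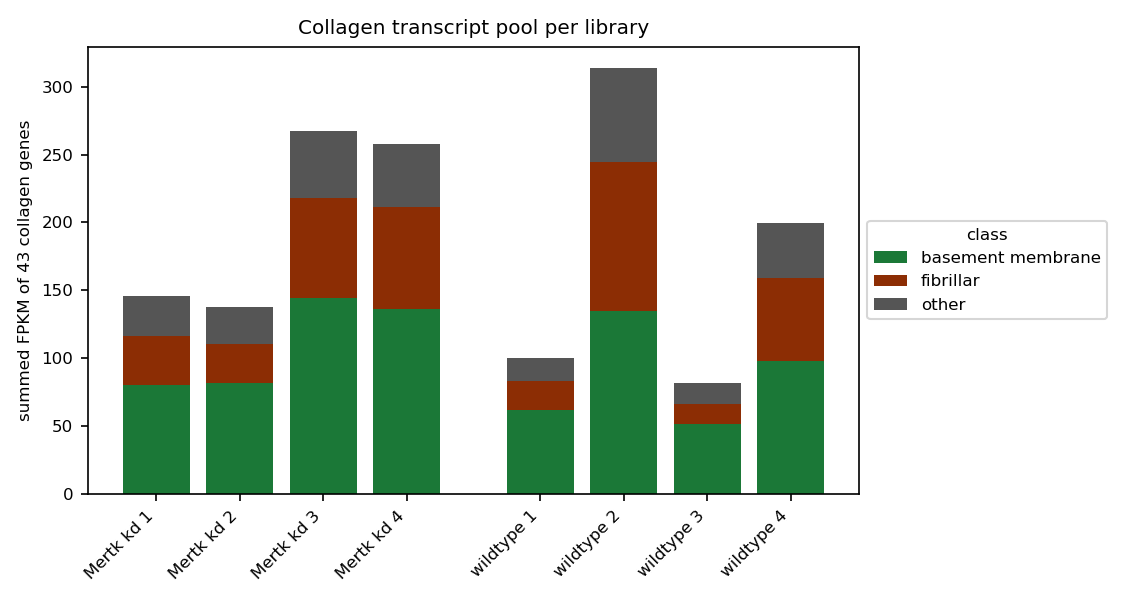
Summed FPKM of the 43 collagen genes (y axis) in each library (x axis), stacked by class, labelled Mertk knockdown libraries on the left. Sums run from 137.5 to 267.4 in the labelled knockdown libraries and from 81.2 to 313.7 in the wildtype libraries.

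The same libraries differed in fibroblast transcripts. The 10 fibroblast markers (without collagens) summed to 1417, 1343, 1537 and 1516 CPM in the labelled knockdown libraries and to 1239, 2069, 1431 and 1677 CPM in wildtype replicates 1 to 4. The largest parts of these sums were Gsn (685.1 to 933 CPM) and Dcn (294.3 to 634.1 CPM). Of the 10, 8 were highest in wildtype replicate 2, while Pdgfra and Dpt were highest in labelled knockdown replicate 3. The 8 markers of activated fibroblasts summed to 230.7, 188.7, 353 and 395.5 CPM in the labelled knockdown libraries, against 217.9, 1172, 118.5 and 381.4 CPM in the wildtype libraries. Among them Postn, a matrix protein of activated fibroblasts, stood at 37.2 to 94.3 CPM in the labelled knockdown libraries and at 19.2, 571.2, 18.5 and 135.7 CPM in wildtype replicates 1 to 4. Postn was the largest part of the sum in wildtype replicate 2. Of the 8, 7 were highest in that library, and Acta2 was highest in labelled knockdown replicate 4 (118.9 CPM). Endothelial markers summed to 848 to 1004 CPM in the labelled knockdown libraries and 756.7 to 867.2 CPM in the wildtype libraries, and mural cell markers to 987.1 to 1093 CPM in the labelled knockdown and 820.5 to 989.5 CPM in the wildtype libraries. The part of these cell types in the collagen levels was not tested.

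Per length, the order of levels was led by Col4a1 (42.1 FPKM on average over the 8 libraries) and Col4a2 (38.6 FPKM), then Col1a1 (16.9), Col3a1 (15.96), Col6a1 (14.9), Col15a1 (9.31), Col1a2 (8.92) and Col6a2 (8.31 FPKM). The SDs over the libraries (15.3, 13.2, 10.1, 12.7, 7.07, 5.86, 5.15 and 4.01 FPKM) exceeded the gap to the next gene in this order, except at the step from Col4a2 down to Col1a1. These SDs do not measure how firm the order is within a library. Col4a1 stood above Col4a2 in all 8 libraries (ratio 1.03 to 1.16), whereas the ratio of Col1a1 to Col3a1 ran from 0.834 to 2.03. In all, 5 genes averaged at least 10 FPKM, 12 lay between 1 and 10, 14 between 0.1 and 1, and 12 under 0.1.

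Among the fibrillar collagens, Col1a1 encodes the major chain of type I collagen (chromosome 11, 94936224 to 94953042, plus strand). It had 13.5, 9.43, 21.4 and 24.2 FPKM in labelled knockdown replicates 1 to 4, against 7.88, 33.6, 3.04 and 21.7 FPKM in wildtype replicates 1 to 4. The labelled knockdown libraries all fell inside the range of the wildtype ones, and the means were 17.1 ± 6.86 FPKM in the labelled knockdown and 16.6 ± 13.9 FPKM in the wildtype group (SD, n = 4 each). By edgeR on the counts its log2 fold change stood at 0.06 with an SE of 0.68 (95% interval -1.53 to 1.64, adjusted p = 0.986).

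Col1a2, the partner chain of type I (chromosome 6, 4504814 to 4541544), had 96.8, 80.3, 138 and 143.4 CPM in the labelled knockdown libraries and 60.7, 259.3, 47.4 and 138.4 CPM in the wildtype libraries. Its wildtype range spanned 5.47-fold and its labelled knockdown range 1.79-fold, with overlap (log2 fold change -0.14, SE 0.54, edgeR adjusted p = 0.950). Col3a1, the single chain of type III collagen (chromosome 1, 45311538 to 45349706), had a wider spread than either type I chain in both groups. It had 82.4, 66.5, 270.1 and 269 CPM in the labelled knockdown libraries, against 42.5, 392.6, 35.8 and 194.4 CPM in the wildtype libraries. The labelled knockdown libraries spanned 4.06-fold, with replicates 1 and 2 below replicates 3 and 4, and the wildtype libraries spanned 10.96-fold. The 95% interval of its log2 fold change ran from -2.07 to 2.17 (value 0.05, edgeR adjusted p = 0.991).

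Type V chains join type I fibrils and limit their width. Col5a1 (chromosome 2, 27886425 to 28039514) had 38.4, 31.4, 62.5 and 59.3 CPM in the labelled knockdown libraries, against 20.5, 75.5, 21.6 and 45.8 CPM in the wildtype libraries (log2 fold change 0.23, SE 0.46, edgeR adjusted p = 0.894). Col5a2 (chromosome 1, 45374321 to 45503282), next to Col3a1, had 22.5, 22.8, 42.6 and 40.6 CPM in the labelled knockdown libraries and 15.7, 95.0, 13.5 and 40.9 CPM in the wildtype libraries (log2 fold change -0.36, SE 0.64, edgeR adjusted p = 0.877). Both repeated the order of Col3a1, with wildtype replicate 2 highest and wildtype replicates 1 and 3 lowest.

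Col5a3, the third type V chain (chromosome 9, 20770050 to 20815067), did not follow that order. It had 8.03, 7.17, 37.5 and 28.3 CPM in labelled knockdown replicates 1 to 4, against 7.38, 9.60, 9.83 and 9.01 CPM in the wildtype libraries. Replicates 3 and 4 of the labelled knockdown group stood apart from the other 6 libraries, and the groups overlapped. Its log2 fold change of 1.18 was the highest of the 36 collagens (SE 0.54, 95% interval -0.09 to 2.44), and it did not pass (edgeR adjusted p = 0.445). In wildtype replicate 2, where Col3a1 peaked, Col5a3 was near the other wildtype libraries.

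The remaining fibrillar genes were low. Col27a1 averaged 5.92 ± 0.917 CPM in the labelled knockdown and 6.33 ± 1.49 CPM in the wildtype libraries. Col11a2 averaged 1.74 ± 0.624 CPM in the labelled knockdown and 1.83 ± 0.158 CPM in the wildtype libraries. Col11a1, a cartilage fibril chain, had 0.407, 0.0906, 0.611 and 0.543 CPM in the labelled knockdown libraries, against 0.709, 1.19, 0.104 and 0.584 CPM in the wildtype libraries, with overlap (log2 fold change -0.65, SE 0.71, edgeR adjusted p = 0.778). Col24a1, with 4 to 14 counts in the labelled knockdown and 0 to 28 in the wildtype libraries, and Col2a1, the main chain of cartilage fibrils, were too low to be tested.

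**Figure D3:**
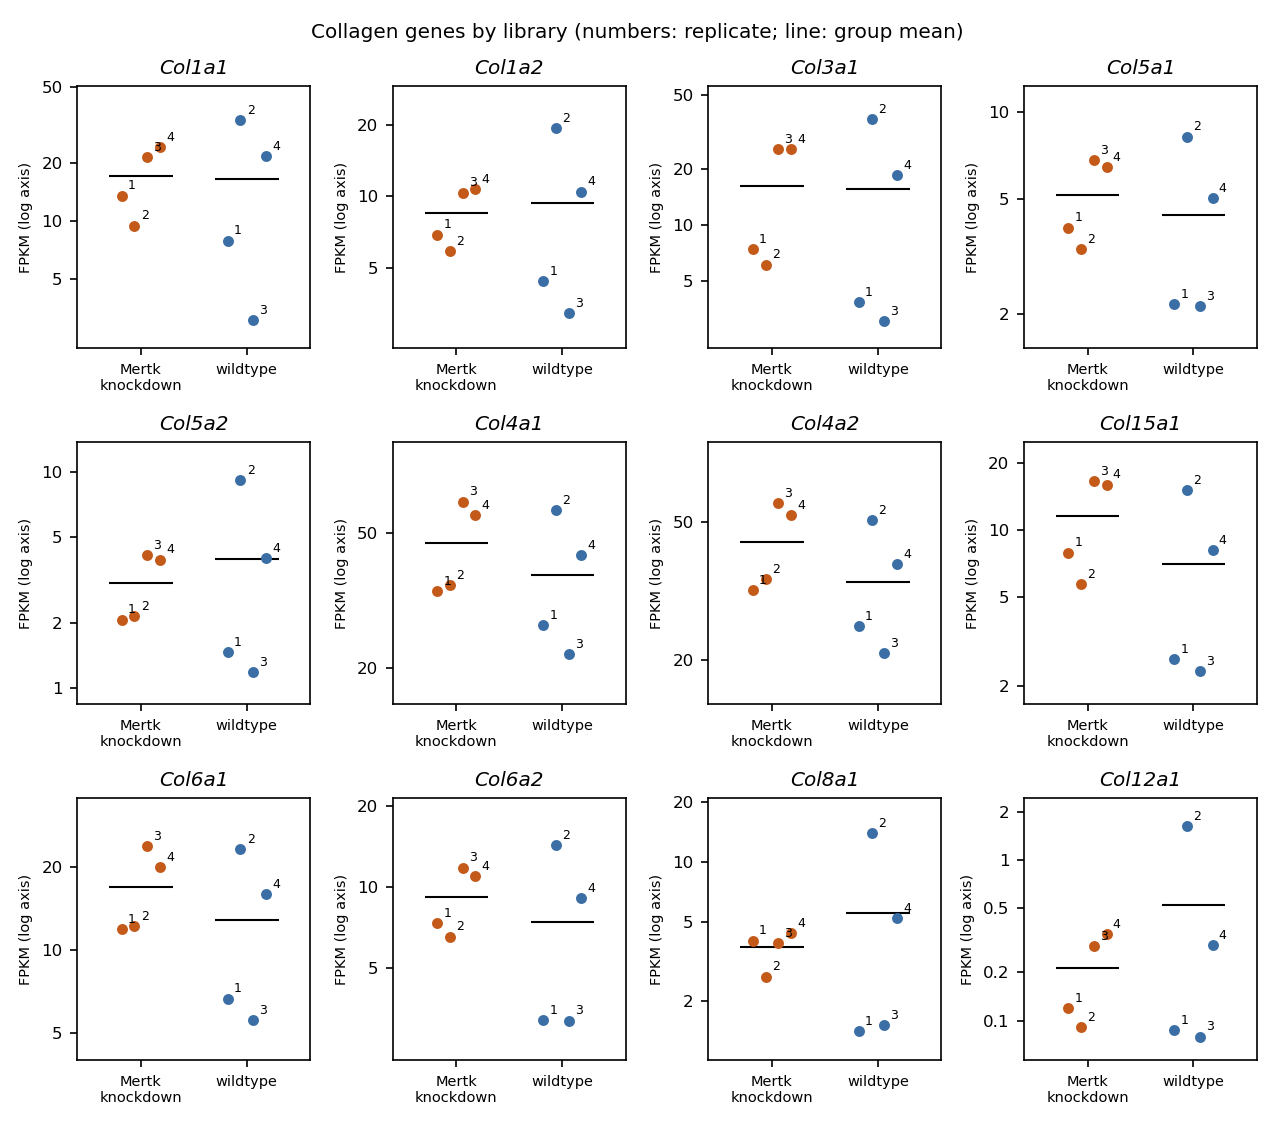
FPKM (log axis, own scale per panel) of 12 collagen genes in the 4 libraries labelled Mertk knockdown (left) and the 4 wildtype libraries (right), with replicate numbers and the group mean as a line. In the Col3a1 panel labelled knockdown replicates 3 and 4 lie together above replicates 1 and 2, and the wildtype libraries extend past both ends.

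Among the basement membrane collagens, Col4a1 (chromosome 8, 11198423 to 11312826) and Col4a2 (chromosome 8, 11312805 to 11449287) encode the ubiquitous type IV heterotrimer. Col4a1 had 282.8, 288, 493.5 and 452.2 CPM in the labelled knockdown libraries, against 222, 467.7, 193.7 and 342 CPM in the wildtype libraries (log2 fold change 0.31, SE 0.30, edgeR adjusted p = 0.747). Col4a2 had 236.9, 248.5, 399.9 and 371.6 CPM in the labelled knockdown libraries and 184.8, 358.6, 164.5 and 266.4 CPM in the wildtype libraries (log2 fold change 0.37, SE 0.27, 95% interval -0.24 to 0.97, edgeR adjusted p = 0.647). For both genes the labelled knockdown libraries overlapped the wildtype ones, labelled knockdown replicate 3 was highest and wildtype replicate 3 lowest. Their ranges were narrower than those of types I and III, at 1.75-fold within the labelled knockdown and 2.42-fold within the wildtype group for Col4a1.

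The other type IV chains behaved differently from each other. Col4a5 (chromosome X, 141475385 to 141689234), mutated in Alport syndrome in humans, had 33.9, 32.3, 35.9 and 35.5 CPM in the labelled knockdown libraries, against 34.0, 42.7, 37.9 and 37.5 CPM in the wildtype libraries. It spanned 1.11-fold within the labelled knockdown and 1.26-fold within the wildtype group, with a log2 fold change of -0.15 (SE 0.09, 95% interval -0.35 to 0.05, edgeR adjusted p = 0.568). Col4a3 and Col4a4, the chains that join Col4a5 in kidney and lung, averaged 5.23 ± 1.45 and 10.4 ± 3.28 CPM in the labelled knockdown libraries, against 5.86 ± 4.56 and 8.60 ± 5.42 CPM in the wildtype libraries. Col4a6 averaged 2.07 ± 1.16 CPM in the labelled knockdown and 1.68 ± 0.143 CPM in the wildtype libraries, and its labelled knockdown replicates 3 and 4 (2.60 and 3.45 CPM) were the highest of the 8.

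Col15a1 (chromosome 4, 47208161 to 47313167) links basement membranes to the fibrils around them. It had 56.9, 40.1, 112.7 and 109.2 CPM in the labelled knockdown libraries, against 18.7, 102.7, 17.5 and 54.8 CPM in the wildtype libraries. Wildtype replicates 1 and 3 lay below every other library, and the groups overlapped (log2 fold change 0.72, SE 0.65, 95% interval -0.80 to 2.24, edgeR adjusted p = 0.723). Col18a1 (chromosome 10, 77052178 to 77166548), whose C-terminal fragment is endostatin, had 9.12, 8.21, 17.7 and 30.2 CPM in the labelled knockdown libraries and 15.4, 15.4, 6.92 and 10.4 CPM in the wildtype libraries (log2 fold change 0.44, SE 0.45, edgeR adjusted p = 0.765). Its highest library, labelled knockdown replicate 4, also had the most atrial (722.7 CPM) and mesothelial marker transcripts (25.0 CPM, against 6.21 to 10.1 CPM in the other libraries). Their part in the Col18a1 level was not tested.

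Among the other collagens, type VI forms beaded microfilaments around cells. Col6a1 (chromosome 10, 76708792 to 76726168) had 58.7, 58.9, 111.8 and 94.4 CPM in the labelled knockdown libraries, against 32.5, 109.4, 28.9 and 74.4 CPM in the wildtype libraries (log2 fold change 0.40, SE 0.46, edgeR adjusted p = 0.798). Col6a2 (chromosome 10, 76595762 to 76623630) had 69.0, 60.1, 105.5 and 98.3 CPM in the labelled knockdown libraries and 29.8, 127.8, 31.5 and 80.6 CPM in the wildtype libraries (log2 fold change 0.30, SE 0.49, edgeR adjusted p = 0.866). Both followed the order of the fibrillar chains at their low end, with wildtype replicates 1 and 3 lowest.

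Col6a3 (chromosome 1, 90765923 to 90843971), the long chain of the same microfilaments, had 33.3, 22.3, 45.2 and 47.8 CPM in the labelled knockdown libraries, against 19.6, 30.1, 17.7 and 23.4 CPM in the wildtype libraries. Of the 4 labelled knockdown libraries, 3 lay above all wildtype ones and replicate 2 lay within them. The difference of 0.71 on the log2 scale (SE 0.25, 95% interval 0.15 to 1.27) did not pass (edgeR adjusted p = 0.287, DESeq2 adjusted p = 0.0751). Without wildtype replicate 2 the log2 fold change was 0.88 (edgeR adjusted p = 0.220). Col6a6, a low chain, had its lowest value in wildtype replicate 2 (0.709 CPM), the library in which 18 of the 36 tested chains were highest, and 3.71 to 10.5 CPM in the labelled knockdown and 3.84 to 5.72 CPM in the other wildtype libraries. 

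Several genes of this class were dominated by wildtype replicate 2. Col8a1 (chromosome 16, 57624258 to 57754737), a short-chain network collagen of vessels, had 35.5, 22.8, 32.7 and 36.8 CPM in the labelled knockdown libraries, against 12.3, 117.8, 14.0 and 43.3 CPM in the wildtype libraries (log2 fold change -0.55, SE 0.72, edgeR adjusted p = 0.825). Col12a1 (chromosome 9, 79598991 to 79718720), which coats type I fibrils, had 2.06, 1.56, 4.78 and 5.63 CPM in the labelled knockdown libraries and 1.48, 26.6, 1.46 and 4.82 CPM in the wildtype libraries (log2 fold change -1.29, SE 1.02, edgeR adjusted p = 0.676). Col14a1 (chromosome 15, 55307750 to 55520803), a related fibril-coating chain, had 8.49, 12.8, 14.7 and 18.6 CPM in the labelled knockdown libraries, against 7.08, 48.8, 6.85 and 21.7 CPM in the wildtype libraries (log2 fold change -0.63, SE 0.66, edgeR adjusted p = 0.770). In all 3 genes that library exceeded every other, and without it their log2 fold changes were 0.47, 0.44 and 0.20, so their direction turned.

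**Figure D4:**
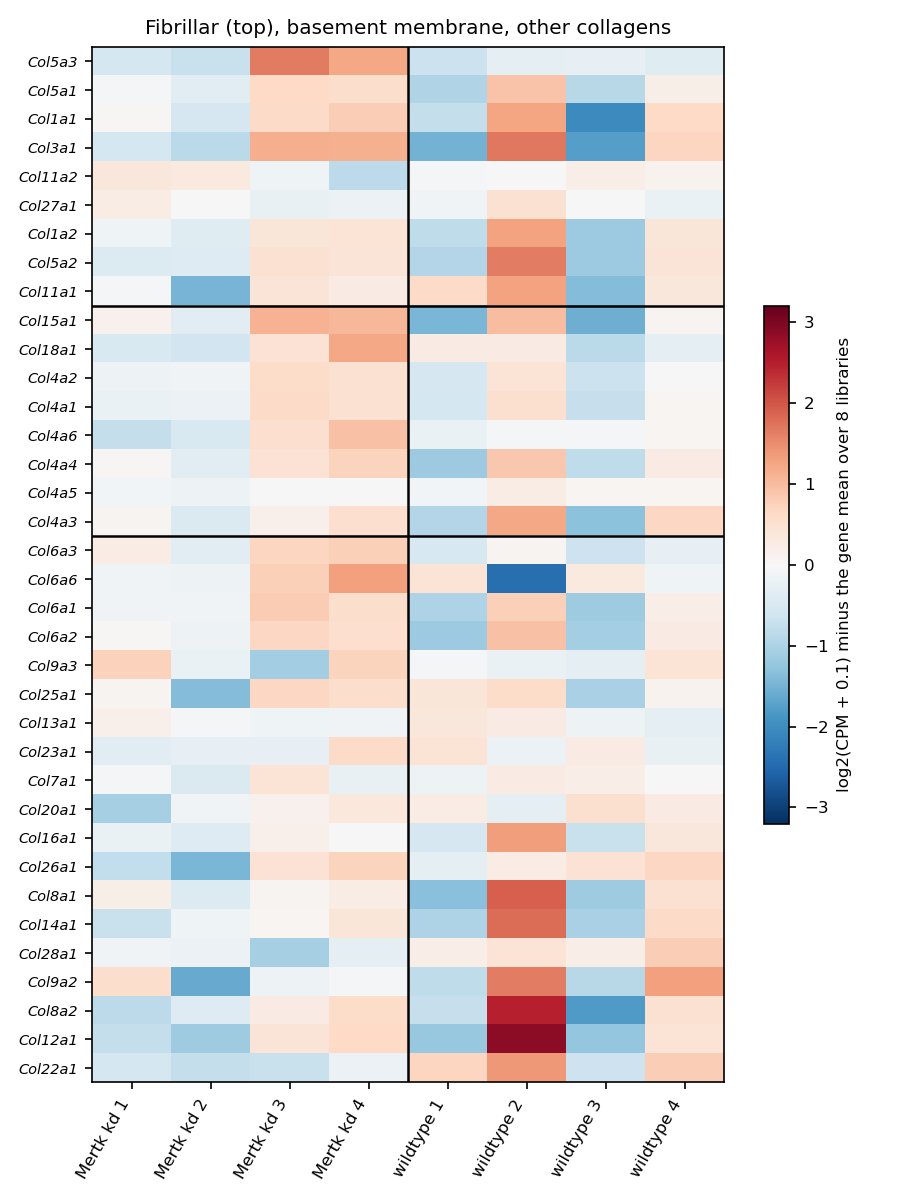
Deviation of log2(CPM + 0.1) from the mean over the 8 libraries (colour) for each of the 36 tested collagen genes (y axis: fibrillar at the top, then basement membrane, then other collagens) in each library (x axis, labelled Mertk knockdown on the left). The Col12a1 and Col8a2 cells of wildtype replicate 2 lie furthest above their gene's mean, and the Col6a6 cell of the same library lies furthest below.

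The collagens with the smallest p were both scarce and lower in the labelled knockdown libraries. Col22a1 (chromosome 15, 71795795 to 72034227), a chain of muscle-tendon junctions, had 0.844, 0.725, 0.752 and 1.13 CPM in the labelled knockdown libraries, against 2.14, 3.51, 0.780 and 2.28 CPM in the wildtype libraries. Wildtype replicate 3 lay among the labelled knockdown libraries and the other 3 above them (log2 fold change -1.34, SE 0.41, 95% interval -2.24 to -0.43, edgeR adjusted p = 0.205). With DESeq2 the adjusted p was 0.0478. Col28a1 (chromosome 6, 7997808 to 8192617), a chain of peripheral nerve, had 1.99, 1.902, 0.987 and 1.745 CPM in the labelled knockdown libraries, against 2.54, 2.96, 2.55 and 3.81 CPM in the wildtype libraries. It was the only tested collagen whose groups did not overlap, 1 of 36, where 8.07% of all tested genes did not (log2 fold change -0.84, SE 0.26, 95% interval -1.43 to -0.25, edgeR adjusted p = 0.218). The 6 Schwann cell markers summed to 18.5, 12.8, 19.7 and 23.9 CPM in the labelled knockdown libraries and to 17.8, 11.4, 24.8 and 28.3 CPM in the wildtype libraries. Their part was not tested.

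The 7 genes too low for the test were Col2a1, Col24a1, Col6a5, Col9a1, Col10a1, Col17a1 and Col19a1. Among them Col17a1, a chain of epithelial attachment, had 0, 0, 4 and 0 counts in the labelled knockdown libraries, against 20, 12, 8 and 18 in the wildtype libraries. Its groups did not overlap, as in 1.21% of all genes that were not tested and 8.07% of those that were. With no filter on low counts it did not pass (edgeR adjusted p = 0.361, DESeq2 adjusted p = 0.0741). Col6a5 had 0, 0, 47 and 4 counts in the labelled knockdown libraries and 0, 0, 8 and 7 in the wildtype libraries. Col10a1 had at most 6 and 9 counts, and Col19a1 at most 16 and 15, in a labelled knockdown and a wildtype library, with overlap.

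Chains of the same protein can be set against each other within a library. Chain ratios of FPKM were compared by an exact permutation test over libraries, two-sided, with adjustment over the 4 ratios. The smallest p this design allows is 0.0286. The ratio of Col4a1 to Col4a2 was close to constant, at 1.06, 1.03, 1.09 and 1.08 in the labelled knockdown libraries, against 1.07, 1.16, 1.04 and 1.14 in the wildtype libraries (difference of log2 ratios -0.05, exact permutation p = 0.286, adjusted p = 0.629). Over all 8 libraries it varied 1.13-fold, while Col4a1 itself varied from 193.7 to 493.5 CPM. The ratio of Col6a1 to Col6a2 ran from 1.62 to 2.01 in the labelled knockdown libraries and from 1.63 to 2.07 in the wildtype libraries (difference 0.03, exact permutation p = 0.743, adjusted p = 0.991).

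Type I chains were less tightly matched. The ratio of Col1a1 to Col1a2 was 1.96, 1.61, 2.07 and 2.25 in the labelled knockdown libraries, against 1.80, 1.73, 0.946 and 2.07 in the wildtype libraries. Wildtype replicate 3 stood below the other 7 libraries, and the groups did not differ beyond this spread (difference of log2 ratios 0.32, exact permutation p = 0.314, adjusted p = 0.629). The protein takes up a pair of Col1a1 chains for each Col1a2 chain. The ratio of Col1a1 to Col3a1 split both groups, at 1.82, 1.53, 0.834 and 0.948 in the labelled knockdown libraries and 2.03, 0.902, 0.988 and 1.17 in the wildtype libraries (difference 0.01, exact permutation p = 1.0, adjusted p = 1.0). It was above 1.5 in labelled knockdown replicates 1 and 2 and wildtype replicate 1.

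**Figure D5:**
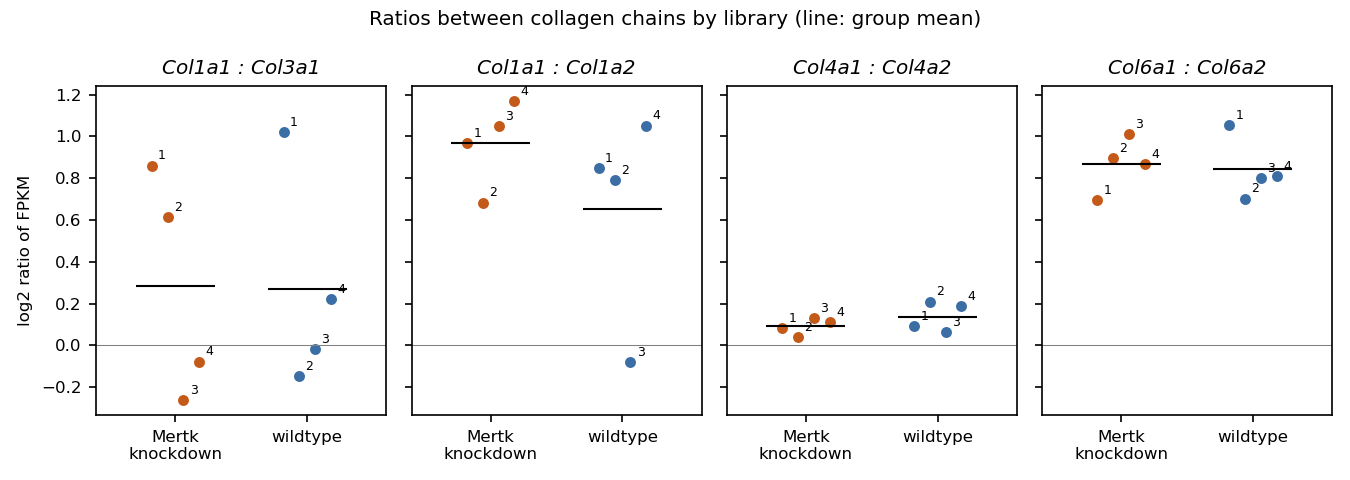
Log2 ratio of FPKM between collagen chains (y axis) in each library labelled Mertk knockdown (left) and wildtype (right), with replicate numbers and the group mean as a line. The Col4a1 to Col4a2 ratio stays within a 1.13-fold range over the 8 libraries, while the Col1a1 to Col3a1 ratio spans 2.43-fold.

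The genes that process and bind collagen did not pass either. Of 35 processing genes and 9 receptors, 43 were tested, with 0 called by edgeR in either direction and 0 by DESeq2. At an unadjusted p under 0.05 there were 4, against the 12.4% of all tested genes. Among them 13 had a log2 fold change above 0 and 30 below (median -0.13). The groups did not overlap for 2 of the 43, Colgalt2 and P4hb, a share below the 8.07% of all tested genes. Colgalt2, which adds galactose to hydroxylysine, stood at 8.18, 7.41, 12.5 and 9.65 CPM in the labelled knockdown libraries and 6.57, 6.77, 5.25 and 6.96 CPM in the wildtype libraries (log2 fold change 0.56, SE 0.18, edgeR adjusted p = 0.218). P4hb, the beta subunit of prolyl 4-hydroxylase, stood at 169.1, 169.4, 175.4 and 170.9 CPM in the labelled knockdown libraries, against 191, 249.6, 183.7 and 208.2 CPM in the wildtype libraries (log2 fold change -0.28, SE 0.11, edgeR adjusted p = 0.322).

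Fkbp10, a collagen folding enzyme, had 13.01, 15.4, 13.6 and 14.3 CPM in the labelled knockdown libraries, against 25.4, 14.7, 27.5 and 15.4 CPM in the wildtype libraries (log2 fold change -0.56, edgeR adjusted p = 0.294). Plod2, a lysyl hydroxylase of cross-linking sites, had 32.3, 17.6, 18.6 and 22.4 CPM in the labelled knockdown libraries, against 25.4, 45.04, 26.2 and 35.9 CPM in the wildtype libraries (log2 fold change -0.55, edgeR adjusted p = 0.390). For both the groups overlapped. Serpinh1, the collagen chaperone HSP47, had 217.6, 181.1, 131.6 and 137.8 CPM in labelled knockdown replicates 1 to 4, against 115.7, 160.1, 115.2 and 139.4 CPM in the wildtype libraries (log2 fold change 0.33, edgeR adjusted p = 0.497). P4ha1, the catalytic subunit of prolyl 4-hydroxylase, had 112.9, 57.5, 30.6 and 29.0 CPM in the labelled knockdown libraries, against 44.3, 74.1, 47.0 and 54.0 CPM in the wildtype libraries (log2 fold change 0.07, edgeR adjusted p = 0.973). Serpinh1 and P4ha1 were highest in labelled knockdown replicate 1, whereas Col1a1, Col3a1 and Col4a1 were higher in labelled knockdown replicates 3 and 4 than in replicates 1 and 2.

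Plod1, another lysyl hydroxylase, had 99.7, 88.7, 69.05 and 68.8 CPM in the labelled knockdown libraries, against 50.25, 84.4, 53.2 and 76.8 CPM in the wildtype libraries (log2 fold change 0.30, edgeR adjusted p = 0.583). Lox, the cross-linking enzyme outside the cell, had 4.01, 3.06, 7.13 and 8.17 CPM in the labelled knockdown libraries, against 4.76, 22.6, 4.63 and 6.36 CPM in the wildtype libraries (log2 fold change -0.78, edgeR adjusted p = 0.665). It was highest in wildtype replicate 2, as were 7 of the 9 tested fibrillar chains. Ddr2, the receptor by which fibroblasts sense fibrillar collagen, had 25.7, 23.4, 24.8 and 30.9 CPM in the labelled knockdown libraries, against 20.7, 32.9, 22.8 and 26.4 CPM in the wildtype libraries (log2 fold change 0.03, edgeR adjusted p = 0.969).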

How the data were processed

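Poly(A) RNA-seq of 8 mouse heart libraries was analysed from 1 table of the whole series. It holds a raw count per gene and library, as deposited, and FPKM values that the authors computed from the same reads, per the file headers. The submitters' processing notes name cutadapt 1.9, HISAT2 2.2.1, StringTie 2.1.6, DESeq2, edgeR and build mm10, with no role or order. The annotation release and the use of strand in counting are not given in the sources used here, so reads of overlapping genes (18 of the 43 collagens overlap another gene) cannot be assigned with certainty.

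The members and gene lists were chosen with earlier results of these data known. Counts of all 17787 genes that passed edgeR's low-count filter were fitted with edgeR 4.0.16 (R 4.3.3; TMM, quasi-likelihood test, labelled knockdown against wildtype, no covariate), with Benjamini-Hochberg adjustment over all of them and a threshold of 0.05. Alternatives used DESeq2 1.42.0, limma 3.58.1 on FPKM, other scalings, a replicate block, marker subsets and leaving out each library. The fit was tested on simulated data, where it called 47.4% of 194 changed genes, and 8 of its 100 calls were false. The changed genes were drawn from all tested genes, so this share need not hold for the collagens. Their log2 fold changes had a median SE of 0.478, against 0.194 for all tested genes. Levels between genes are given as FPKM only. FPKM ratios were compared by exact permutation in scipy 1.17.1, and spreads use log2(CPM + 0.1). Values in every library were given for 15 major chains, for the 2 members of each class with the smallest p, for tested members without overlap, and for 9 processing and receptor genes, 4 of them with the smallest p. Col17a1, Col6a5, Col6a6, Col4a6 and the cartilage chains were added after their values were seen. Promoter windows are from RefSeq, GRCm38.p6. Libraries of 1 group differed by more than counting error (chi-square over its degrees of freedom 37.9 to 198.7). Each was treated as 1 replicate, but this spread cannot show that each is a separate mouse. Depth limits only the low genes: 3 counts correspond to 0.0407 to 0.0520 CPM.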

Additional observations from a re-analysis of the deposited data

How the results depend on the processing

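DESeq2 called 1 collagen, and edgeR and limma called 0 under each alternative run. The subsets over 100 and over 200 CPM of hepatocyte markers hold a single wildtype library, so the 0 calls there say nothing about stability. The number of genes called over the whole table (115) was 583 with DESeq2, 39 and 21 with limma on log2(FPKM + 0.1) and log2(FPKM + 1), 13 with a hepatocyte covariate, 34 and 42 in the libraries over 200 and over 100 CPM of hepatocyte markers, 6 in those under 200 CPM of atrial markers, and 44 to 265 when a library was left out. The subsets over 100 CPM of hepatocyte and under 200 CPM of atrial markers were chosen after seeing the data. The cause of these shifts was not tested, beyond the fewer libraries in the subsets.

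The deviations of same-numbered libraries had correlations of 0.0662, -0.0261, -0.0303 and 0.203. These have no reference from differently numbered libraries, so they cannot decide whether same-numbered libraries were paired or prepared together. With the replicate block 24 genes were called, 0 of them collagens, the fibrillar median was 0.17 (against -0.08), and log2 fold changes turned for Col1a2 (0.17), Col5a2 (0.0625), Col8a1 (0.11) and P4ha1 (-0.16).

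With the hepatocyte covariate the class medians were 1.09 (fibrillar), 0.81 (basement membrane) and 0.48 (other). Hepatocyte transcripts were abundant in every labelled knockdown library but in only a single wildtype library, so this covariate nearly follows the groups. Its estimates lean mainly on that wildtype library, as those of the hepatocyte subsets do. They are not a separate check of the subsets, and the lack of collagen calls with the covariate says little about stability. The fibrillar median was 0.84 and 0.98, and the other median 0.31 and 0.41, over 200 and over 100 CPM of hepatocyte markers. Under the atrial limit the basement membrane median turned to -0.0355 (against 0.30) and the fibrillar median was -0.47. With limma at pseudocount 0.1 the fibrillar median turned to 0.0337. The other median was -0.60 under the atrial limit, -0.0695 and -0.0134 with limma at pseudocounts 0.1 and 1, and -0.49 to 0.19 when a library was left out, which gave -0.28 to 0.47 for the fibrillar and 0.0242 to 0.59 for the basement membrane median. Log2 fold changes turned with the covariate for Col1a2 (0.97), Col4a5 (0.013), Col5a2 (1.09), Col8a1 (1.43), Col12a1 (1.29), Col14a1 (1.02) and Lox (0.25). Over 100 CPM they turned for Col1a2 (0.92), Col4a5 (0.023), Col5a2 (1.04), Col8a1 (1.39), Col12a1 (1.25), Col14a1 (0.95) and Lox (0.24), and over 200 CPM for Col1a2 (0.80), Col4a5 (0.008), Col5a2 (0.91), Col8a1 (1.31), Col12a1 (0.92), Col14a1 (0.77) and Col18a1 (-0.39). Under the atrial limit they turned for Col1a1 (-0.47), Col3a1 (-0.64), Col5a1 (-0.12), Col6a2 (-0.0081), Col18a1 (-0.39) and Ddr2 (-0.12). With limma they turned for Col1a2 (0.16 and 0.11 at pseudocounts 0.1 and 1), P4ha1 (-0.11 and -0.0904), and at 0.1 for Col5a2 (0.034) and Col8a1 (0.042).

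The difference of the Col1a1 to Col3a1 log2 ratio turned to -0.62 and -0.74 over 200 and over 100 CPM of hepatocyte markers, and -0.032 under the atrial limit. That of Col6a1 to Col6a2 turned to -0.19, -0.18 and -0.0101. Leaving out a library gave -0.18 to 0.27 and -0.0217 to 0.0962 for these ratios. It gave log2 fold changes of -0.28 to 0.66 for Col1a1, -0.42 to 0.48 for Col1a2, -0.29 to 0.92 for Col3a1, -0.65 to 0.46 for Col5a2, -0.87 to 0.47 for Col8a1, -1.64 to 0.44 for Col12a1, -0.92 to 0.20 for Col14a1, -0.0373 to 0.66 for Col18a1, -0.49 to 0.30 for P4ha1, -0.0653 to 0.17 for Ddr2 and -1.02 to 0.0936 for Lox.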

Other observations

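Some chains typical of cartilage were highest in 1 wildtype library, and others were not. Col2a1, the main chain of cartilage fibrils, had 173 counts in wildtype replicate 2 and 0 in the other 7 libraries, and Col9a1, a chain on the surface of those fibrils, had 13 counts there and 0 elsewhere. Col9a2, their partner, had 0.693, 0.0755, 0.376 and 0.425 CPM in the labelled knockdown libraries, against 0.205, 1.55, 0.191 and 1.22 CPM in the wildtype libraries. Col9a3, the remaining chain of that type, was highest in labelled knockdown replicate 1 (0.588 CPM, against 0.256 CPM in wildtype replicate 2). Col10a1, a chain of growth plate cartilage, had 0 counts in wildtype replicate 2, 6 in labelled knockdown replicate 3 and 9 in wildtype replicate 4. All 7105 bases of Col10a1 lie within Nt5dc1 (6.73 CPM on average) on the other strand, so these few counts cannot be assigned with certainty. Col11a2 was also highest in labelled knockdown replicate 1 (2.26 CPM, against 1.75 CPM in wildtype replicate 2). The 6 cartilage markers in the table summed to 3.59 to 5.82 CPM in the labelled knockdown libraries and to 12.05 CPM in wildtype replicate 2, against 2.52 to 3.44 CPM in the other wildtype libraries. Of the 6, 3 were highest in wildtype replicate 2 (Acan, Chad and Sox9). Chad, a cartilage matrix protein, made up 6.83 CPM of that sum. These genes were picked after their values were seen, and the part of cartilage tissue in the other collagen levels of that library was not tested.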
